A study of Mus musculus with 9 samples.

Results

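CaMKII, the calcium- and calmodulin-dependent protein kinase II, is represented here by the genes of its subunits, Camk2a, Camk2b, Camk2d and Camk2g, and of its small protein inhibitors, Camk2n1 and Camk2n2. These 6 genes were taken by their symbols from the 16770 genes tested, through the probe sets of the array that the platform annotation assigns to 1 of these genes alone. They have 162 of the 318760 probe sets with 1 gene symbol, and 152 of the 162 passed a filter on dim probe sets at a mean log2 value of 6.07. The filter removed 8 probe sets of Camk2d, 1 of Camk2a and 1 of Camk2g, and the closest values on either side were 6.20 for a kept Camk2d probe set and 5.98 for a removed Camk2g probe set. The set was assembled because Camk2n1 and Camk2a had already stood out when the hairpins were compared with the control. The gene values of Camk2n1 and Camk2a in those comparisons are therefore a description with no test.

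The cells were primary cortical neurons from C57BL/6 mouse embryos at embryonic day 15, grown in a medium with neurotrophic factors and treated overnight with AraC, which kills dividing cells. In all, 3 groups of 3 arrays each were used, and every group received a lentivirus that expresses a short hairpin RNA: shTdp-43-1, shTdp-43-2, or the control hairpin shCont. The virus was added on day 5 for 4 h and the cells were harvested on day 11. Tdp-43 is an RNA-binding protein, encoded by Tardbp, that controls splicing and RNA stability. RNA was hybridised to exon arrays (Affymetrix Mouse Exon 1.0 ST), on which a gene is covered by several probe sets, each reading 1 stretch of an exon. Motor neurons are named in the design text and cortical neurons in the sample labels, which were followed. The series text also gives harvest 11 days after transfection. The labels give day 11, with infection on day 5, and were followed here too. Nothing in the labels says that the 3 arrays of a group came from separate cultures, so p-values measure the spread between these arrays, which may be technical. Both hairpins were set against the same 3 shCont arrays, so their comparisons with the control are not independent.

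CaMKII is activated when calcium-bound calmodulin displaces an autoinhibitory segment, and autophosphorylation then keeps it partly active after calcium has fallen. Its subunits assemble into large holoenzymes in which α and β subunits predominate in the forebrain, where the kinase is abundant at excitatory synapses and is required for long-term potentiation. The linker between the kinase and the hub domain of each subunit is built from alternatively spliced exons. Camk2n1 and Camk2n2 encode short proteins that bind the active kinase and block it.

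Tardbp, the hairpins' target, read 7.84, 8.23 and 8.55 with shTdp-43-1 and 8.22, 8.58 and 7.90 with shTdp-43-2, against 9.77, 9.94 and 10.06 with shCont (gene values, log2). It fell to 30.4% of the control level with shTdp-43-1 (limma adjusted p = 0.000349) and to 30.9% with shTdp-43-2 (limma adjusted p = 0.000109), so each group carried the knockdown that its label names. Of the 10 tested genes marking all neurons, 0 lay below the median gene level of 8.87 (mean log2 value over the arrays). This was so for 3 of 12 for astrocytes, 3 of 9 for the oligodendrocyte lineage, 10 of 10 for microglia and 7 of 7 for endothelium. Markers of astrocytes and of the oligodendrocyte lineage were thus also mostly above that level. The astrocyte mean was 10.32 to 10.37 with shTdp-43-1, 10.29 to 10.35 with shTdp-43-2 and 10.32 to 10.48 with shCont. Array levels of different genes are only a rough guide, since probes differ in brightness. The mean of the neuronal markers was 11.3 to 11.45 with shTdp-43-1 and 11.32 to 11.48 with shTdp-43-2, against 11.49 to 11.6 with shCont. The mean of the 10 excitatory neuron markers, Camk2a not among them, was 10.12 to 10.37 with shTdp-43-1 and 10.24 to 10.39 with shTdp-43-2, against 10.34 to 10.52 with shCont. In the mean of both hairpins, limma called 4 of the 10 neuronal markers lower, and 1 of the 10 excitatory markers higher and 3 lower. Of 13 inhibitory neuron markers 1 was called higher and 2 lower, and of 12 astrocyte markers 1 higher and 1 lower. Endothelium had 1 of 7 higher, progenitors 1 of 9 lower, and the oligodendrocyte lineage and microglia 0. For fibroblasts and pericytes 4 of 10 were called lower. Their mean was 8.18 to 8.34 with shTdp-43-1 and 8.03 to 8.17 with shTdp-43-2, against 8.37 to 8.42 with shCont. Over all genes, 7.42% were called higher and 11.9% lower in this contrast. The part of these shifts in the results below was not tested.

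The inhibitor Camk2n1 was about doubled in abundance with each hairpin. Its gene value (log2, averaged over the probe sets kept) was 10.15, 10.00 and 10.10 with shTdp-43-1 and 10.10, 10.32 and 10.13 with shTdp-43-2, against 8.99, 9.02 and 9.14 with shCont. All 6 hairpin arrays lay above all 3 control arrays, a separation that 16.9% of all genes showed with shTdp-43-1 and 15.3% with shTdp-43-2. The difference was 1.03 ± 0.0869 (log2, SE, n = 3 against 3), or 2.05-fold, with shTdp-43-1 and 1.13 ± 0.0869, or 2.19-fold, with shTdp-43-2. This placed Camk2n1 19th highest of 16770 genes with shTdp-43-1 and 36th highest with shTdp-43-2. The hairpins did not differ detectably in it: shTdp-43-2 minus shTdp-43-1 was 0.10 (95% interval -0.09 to 0.29, limma adjusted p = 0.554). In RNA from a whole culture, fewer cells of a type and less RNA per cell cannot be told apart, and this holds for every gene below.

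All 7 probe sets of Camk2n1 were higher with each hairpin, on all 3 arrays each time, but by unequal amounts. Of all tested probe sets, 10.8% lay above the control in this way with shTdp-43-1 and 11.3% with shTdp-43-2. Probe set 5608821 read 10.42, 10.39 and 10.37 with shTdp-43-1 and 10.43, 11.00 and 10.82 with shTdp-43-2, against 8.53, 8.39 and 8.99 with shCont, which is 3.39-fold and 4.34-fold. Probe set 4434999 read 11.19, 11.42 and 11.52 with shTdp-43-1 and 11.32, 11.13 and 11.24 with shTdp-43-2, against 11.08, 10.96 and 10.94 with shCont, which is 1.31-fold and 1.18-fold. The brightest set, 5037720, was higher by 0.92 and 0.96, and the remaining 4 sets by 0.64 to 1.53 with shTdp-43-1 and by 0.72 to 1.56 with shTdp-43-2. The size of the gene's difference thus depends on how its sets are combined. Taking the median of the sets on each array instead of the mean, shTdp-43-1 gave 1.76 and shTdp-43-2 gave 2.12. These 2 values are nearly those of 5608821 alone, the set that changed most. It was the middle set on every array except shCont replicate 1, where 4747676 was. The median of the 7 sets' own changes, in contrast, came to 0.92 for shTdp-43-1 and 0.96 for shTdp-43-2.

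**Figure D1:**
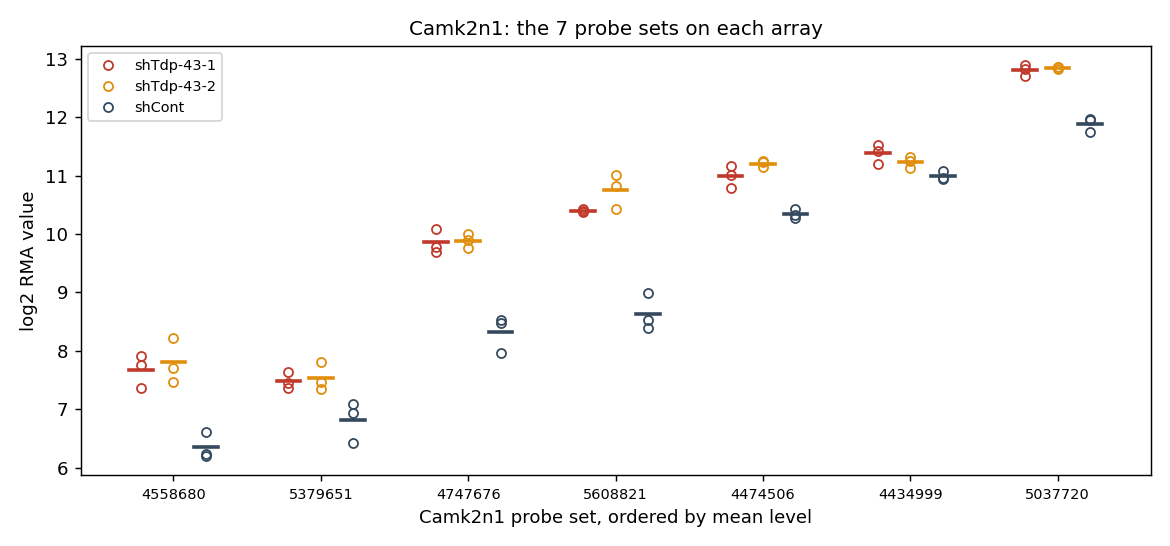
Log2 value (y axis) of the 7 Camk2n1 probe sets (x axis, ordered by mean level), with 1 circle per array and a bar at each group mean, 3 arrays per group. In every probe set the circles of both hairpins lie above those of shCont, with the widest gap at 5608821 and the narrowest at 4434999.

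Camk2n2, the other inhibitor, did not follow Camk2n1. It read 10.97, 10.97 and 10.77 with shTdp-43-1 and 10.84, 10.84 and 10.83 with shTdp-43-2, against 11.15, 11.11 and 10.91 with shCont. The arrays of shTdp-43-1 overlapped those of shCont, while those of shTdp-43-2 lay below all of them. The difference did not pass the test with shTdp-43-1 (-0.15, 95% interval -0.35 to 0.04, limma adjusted p = 0.284) or with shTdp-43-2 (-0.22, 95% interval -0.41 to -0.02, limma adjusted p = 0.11). Of its 5 probe sets 4 were lower and 1 was level, at 0.00, with each hairpin.

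Camk2a, the gene of the α subunit of forebrain excitatory neurons, was higher with both hairpins, and more so with shTdp-43-1. Its gene value was 11.37, 11.21 and 11.17 with shTdp-43-1 and 10.87, 10.98 and 10.77 with shTdp-43-2, against 10.67, 10.77 and 10.65 with shCont. The 3 groups followed each other without overlap, though the lowest shTdp-43-2 array and the highest shCont array nearly met. The difference from shCont was 0.55 ± 0.0872, or 1.47-fold, with shTdp-43-1 and 0.17 ± 0.0872, or 1.13-fold, with shTdp-43-2 (log2, SE, n = 3 against 3). With the median of the probe sets the difference with shTdp-43-2 was 0.34. Camk2a was lower with shTdp-43-2 than with shTdp-43-1 (-0.38 ± 0.0872, limma adjusted p = 0.0167). The gene was chosen on its values against shCont and not on this difference, but the hairpin arrays are the same, so this p is not fully independent of the choice. That call was lost without shTdp-43-1 replicate 1 (-0.32, limma adjusted p = 0.0539), without shTdp-43-2 replicate 1 (-0.38, limma adjusted p = 0.0592) and with the median of the probe sets (-0.38, limma adjusted p = 0.0576).

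Camk2b encodes the β subunit, which binds actin and holds the holoenzyme in dendritic spines. It read 11.50, 11.43 and 11.42 with shTdp-43-1 and 11.13, 11.22 and 11.09 with shTdp-43-2, against 11.51, 11.52 and 11.42 with shCont. The shTdp-43-2 arrays lay below all others, and the shTdp-43-1 arrays overlapped those of shCont. Camk2b fell with shTdp-43-2 to 79.2% of the control level (-0.34 ± 0.0749, limma adjusted p = 0.0076), a call present in 20 of 20 alternative settings. With shTdp-43-1 the difference was -0.04 (95% interval -0.20 to 0.13, limma adjusted p = 0.78). The hairpins differed by -0.30 ± 0.0749 (shTdp-43-2 minus shTdp-43-1, limma adjusted p = 0.0235). That call was lost when any 1 of the 3 shTdp-43-1 arrays, or shTdp-43-2 replicate 1 or 3, was left out, with differences from -0.31 to -0.27 and limma adjusted p of 0.0567 to 0.0871. A fit of only these 2 groups lost it too (limma adjusted p = 0.0606). With shTdp-43-2, 30 of its 33 probe sets were lower, 22 of them without overlap, against 17.4% of all probe sets lying below the control in this way; with shTdp-43-1, 23 were lower and 1 of them had no overlap, against 13.3%.

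Camk2g, the gene of the γ subunit, which is found in many tissues, read 10.95, 10.91 and 10.93 with shTdp-43-1 and 10.71, 10.93 and 10.71 with shTdp-43-2, against 11.04, 11.13 and 11.04 with shCont. All hairpin arrays lay below all control arrays, as did 18.1% of all genes with shTdp-43-1 and 23.4% with shTdp-43-2. Camk2g fell with shTdp-43-2 to 82.2% of the control level (-0.28 ± 0.083, limma adjusted p = 0.0301). With shTdp-43-1 it did not pass the test (-0.13, 95% interval -0.32 to 0.05, limma adjusted p = 0.31). The call with shTdp-43-2 was kept in 12 of 20 alternative settings. It was lost without shTdp-43-2 replicate 1 or 3, without any 1 of the shCont arrays (-0.30 to -0.25, limma adjusted p from 0.0613 to 0.109), with arrays centred on their medians (-0.20, limma adjusted p = 0.0848), with the median of the probe sets (-0.24, limma adjusted p = 0.227) and in a fit of only these 2 groups (limma adjusted p = 0.0531). All 35 kept probe sets were lower with shTdp-43-2, 19 of them without overlap, beside 17.4% of all probe sets, and 30 were lower with shTdp-43-1, 9 without overlap, beside 13.3%.

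Camk2d encodes the δ subunit, the main CaMKII of the heart, which is also made in brain. It read 10.29, 10.24 and 10.30 with shTdp-43-1 and 9.92, 10.17 and 9.95 with shTdp-43-2, against 10.02, 10.13 and 10.23 with shCont. The shTdp-43-1 arrays lay just above those of shCont and the shTdp-43-2 arrays overlapped them. Neither difference passed the test (0.15, limma adjusted p = 0.304, with shTdp-43-1 and -0.11, limma adjusted p = 0.426, with shTdp-43-2). The hairpins differed by -0.26, with a 95% interval of -0.46 to -0.06, which did not pass after adjustment over all genes (limma adjusted p = 0.0877) but did without shTdp-43-2 replicate 2 (-0.34, limma adjusted p = 0.0385).

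**Figure D2:**
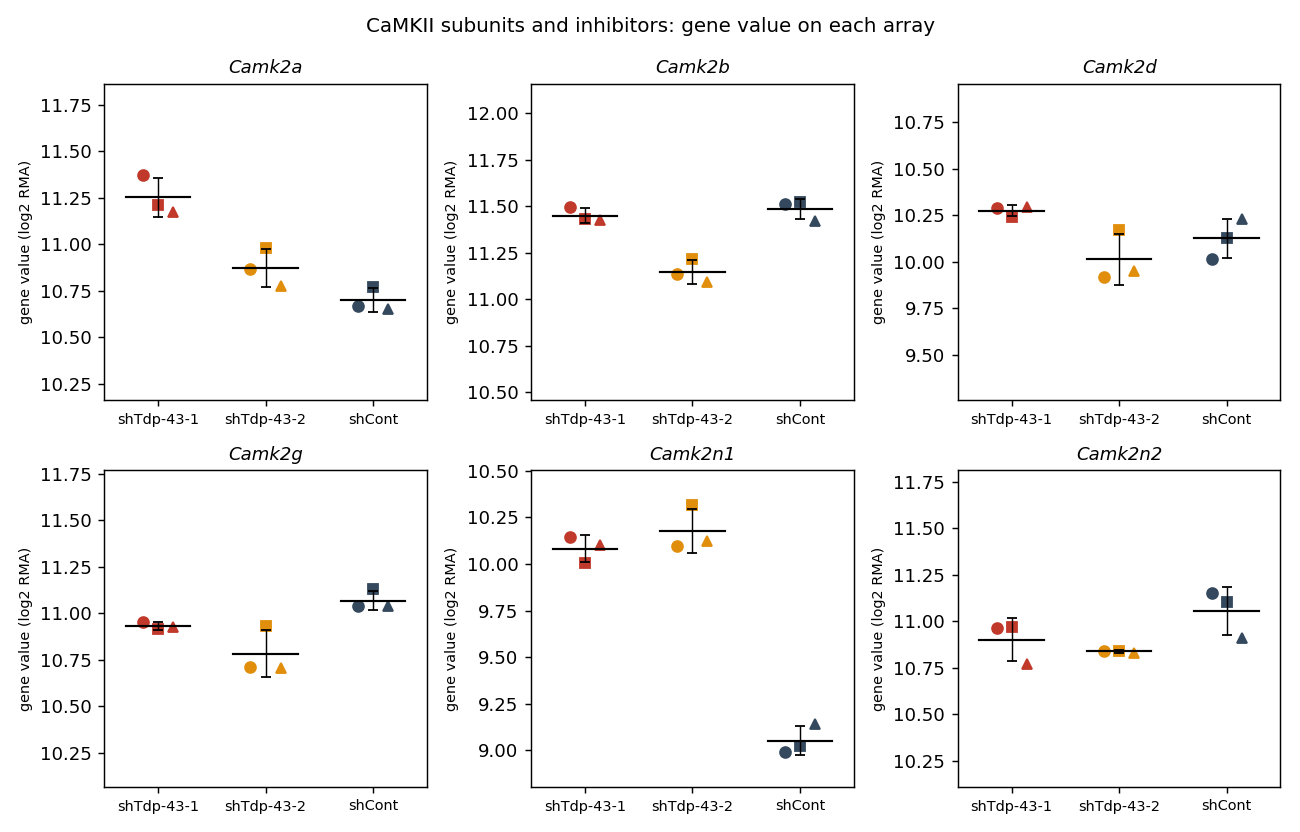
Gene value (y axis, log2) of each subunit and inhibitor on each array, with shTdp-43-1, shTdp-43-2 and shCont from left to right; the circle, square and triangle are replicates 1, 2 and 3, the line is the mean and the bar the SD, and every panel spans the same log2 range. Camk2n1 shows the widest gap, with both hairpins between 10.00 and 10.32 and shCont between 8.99 and 9.14, while the shTdp-43-2 arrays of Camk2b lie at 11.22 or lower and all others at 11.42 or higher.

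With shTdp-43-1, 2 of the 6 genes had a limma adjusted p under 0.05, both higher (Camk2a and Camk2n1), beside 11.1% of all genes (5.16% higher and 5.96% lower). With shTdp-43-2, 1 was under that threshold as higher (Camk2n1) and 2 as lower (Camk2b and Camk2g), beside 21.9% of all genes (7.76% higher and 14.1% lower). In the mean of both hairpins 2 were under it, both higher (Camk2a and Camk2n1), beside 19.3%. Between the hairpins 2 passed (Camk2a and Camk2b), both lower with shTdp-43-2 than with shTdp-43-1, beside 11.5% of all genes (4.22% higher and 7.31% lower). Camk2n1 and Camk2a were in the set for such values. Their low p against shCont is therefore no test of these 2 genes, and these counts say nothing about the group. In the mean of both hairpins, Camk2b (-0.19, limma adjusted p = 0.0665), Camk2g (-0.21, limma adjusted p = 0.0635), Camk2n2 (-0.19, limma adjusted p = 0.118) and Camk2d (0.02, limma adjusted p = 0.884) did not pass. With shTdp-43-2 the β and γ subunits thus fell, Camk2d did not pass, and the higher value of Camk2a, a description here, was not among the genes called. Over all 16770 genes the median change with shTdp-43-1 was 0.01, and that with shTdp-43-2 was -0.01.

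Within Camk2a, a single probe set ran against the rest of the gene. Probe set 5216450 read 8.96, 8.74 and 8.62 with shTdp-43-1 and 8.03, 8.51 and 7.94 with shTdp-43-2, against 10.47, 10.57 and 10.28 with shCont. All hairpin arrays lay more than 1 log2 unit below all control arrays. Its level was 31.5% of the control with shTdp-43-1 and 20.6% with shTdp-43-2. The mean of the other 31 kept probe sets was 11.45, 11.29 and 11.25 with shTdp-43-1 and 10.96, 11.06 and 10.86 with shTdp-43-2, against 10.68, 10.78 and 10.67 with shCont. Each of these 31 was higher with shTdp-43-1, by 0.26 to 0.93, and 30 of them were higher with shTdp-43-2, with a range of -0.04 to 0.50.

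Usage here means how far a probe set changed beyond the mean change of its gene's other kept probe sets, so the gene's own change is taken out of it. It was tested with limma's diffSplice, and again, with an alternative added after the data were seen, in a model that gives each probe set its own variance, because diffSplice applies 1 variance to a whole gene and made many false calls in simulated data. The genes were chosen on gene values from these same arrays and contrasts, so the choice is not fully independent of these tests. Usage of 5216450 was -2.29 ± 0.183 with shTdp-43-1 (diffSplice adjusted p = 1.47e-21, limma adjusted p = 0.00328 with its own variance). With shTdp-43-2 it was -2.53 ± 0.183 (diffSplice adjusted p = 1.264e-25, limma adjusted p = 0.00131 with its own variance). By p-value it ranked 1 of 248701 probe sets with each hairpin in both models. Both calls were present in 16 of 16 alternative settings that gave a value. Between the hairpins its usage differed by -0.24, which did not pass (limma adjusted p = 0.81 with its own variance). The position of this probe set in the gene was not analysed here.

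**Figure D3:**
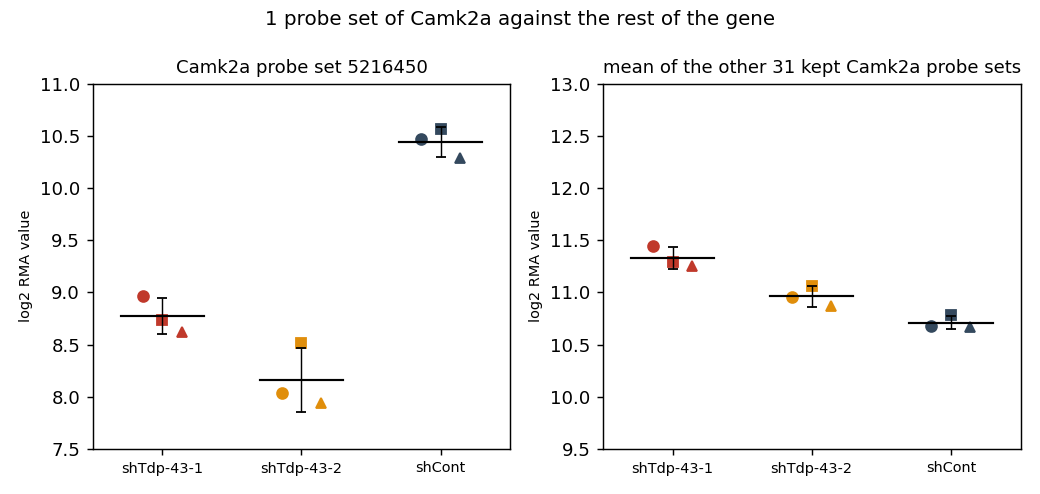
Log2 value (y axis) of Camk2a probe set 5216450 (left) and of the mean of the other 31 kept Camk2a probe sets (right) on each array, with shTdp-43-1, shTdp-43-2 and shCont from left to right; symbols are replicates 1 to 3, lines are means and bars SDs, and both axes span the same range. On the left the hairpin arrays lie at 8.96 or lower and the shCont arrays at 10.28 or higher; on the right the order is turned, with shCont lowest at 10.67 to 10.78.

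Over all 6 genes, diffSplice called 4 of 152 probe sets with shTdp-43-1, beside 0.494% of all probe sets, and 5 with shTdp-43-2, beside 1.24%. In the mean of both hairpins it called 5, beside 0.986%. With its own variance for each probe set, 1 was called with shTdp-43-1, beside 0.00523%, 3 with shTdp-43-2, beside 0.151%, and 1 in the mean, beside 0.0354%. Between the hairpins diffSplice called 0 of 152, beside 0.44%, and the own-variance model called 0, beside 0%, with 7 at an unadjusted p under 0.05 in each model. The probe sets called by diffSplice belonged to Camk2a, Camk2d and Camk2n1. Of all genes, 5.93% had a called probe set with shTdp-43-1 and 12.3% with shTdp-43-2. The basis is unlike, since a gene with more probe sets has more chances of a call. Camk2a has 32 kept sets, Camk2d 40 and Camk2n1 7, beside a median of 12 per gene.

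In Camk2d, probe set 4970003 read 8.43, 7.81 and 7.94 with shTdp-43-1 and 8.12, 8.33 and 7.75 with shTdp-43-2, against 6.99, 7.12 and 7.18 with shCont. All hairpin arrays lay above all control arrays, as did 10.8% of all probe sets with shTdp-43-1 and 11.3% with shTdp-43-2. The set was at 1.95-fold with shTdp-43-1 and 1.96-fold with shTdp-43-2, while the rest of the gene moved by 0.13 and -0.14. Its control values lay not far above the dim filter of 6.07, so these folds rest on low readings. Usage of 4970003 was 0.83 with shTdp-43-1 (diffSplice adjusted p = 0.0122, limma adjusted p = 0.22 with its own variance). With shTdp-43-2 it was 1.11 (diffSplice adjusted p = 3.298e-05, limma adjusted p = 0.0519 with its own variance). The call with shTdp-43-1 was also lost without shTdp-43-1 replicate 1, shCont replicate 2 or shCont replicate 3 (0.65 to 0.84, diffSplice adjusted p from 0.0605 to 0.179) and with no dim filter (0.82, diffSplice adjusted p = 0.136).

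A second Camk2d probe set, 4513650, was singled out after its values were seen. It read 11.46, 11.28 and 11.45 with shTdp-43-1 and 10.50, 11.08 and 10.84 with shTdp-43-2, against 11.61, 11.79 and 11.81 with shCont. Both hairpins lay below the control, shTdp-43-2 at 52.5% of it. Of all probe sets, 13.3% lay below all control arrays with shTdp-43-1 and 17.4% with shTdp-43-2. Usage of 4513650 fell with shTdp-43-2 (-0.84, diffSplice adjusted p = 0.00541, limma adjusted p = 0.0404 with its own variance) and did not pass with shTdp-43-1 (-0.50, diffSplice adjusted p = 0.429). The diffSplice call was lost without shTdp-43-2 replicate 1 (-0.73, diffSplice adjusted p = 0.0675), without shCont replicate 2 (-0.81, diffSplice adjusted p = 0.0603) and with no dim filter (-0.83, diffSplice adjusted p = 0.0979).

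In Camk2n1 the unequal differences of the probe sets described above passed in part. Usage of 5608821 was 0.85 with shTdp-43-1 (diffSplice adjusted p = 0.0176, limma adjusted p = 0.201 with its own variance) and 1.15 with shTdp-43-2 (diffSplice adjusted p = 0.000109, limma adjusted p = 0.0465 with its own variance). Usage of 4434999 was -0.76 with shTdp-43-1 (diffSplice adjusted p = 0.0489, limma adjusted p = 0.261 with its own variance) and -1.04 with shTdp-43-2 (diffSplice adjusted p = 0.000565, limma adjusted p = 0.0608 with its own variance). With shTdp-43-1 the diffSplice call of 4434999 was lost without any 1 of the shTdp-43-1 or shCont arrays or without shTdp-43-2 replicate 3 (adjusted p from 0.0625 to 0.29). That of 5608821 was lost without shTdp-43-1 replicate 2 or 3 or shCont replicate 1 or 2 (adjusted p from 0.0847 to 0.199). With shTdp-43-2 no array left out ended either call.

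In the other 3 genes, the probe set with the lowest usage p in the mean of both hairpins did not pass with either hairpin. For Camk2b it was 4655211, at 0.23 and 0.51 (diffSplice adjusted p = 1 and 0.126), for Camk2g 4533122, at 0.58 and 0.05 (diffSplice adjusted p = 0.281 and 1), and for Camk2n2 5485540, at 0.20 and 0.28 (diffSplice adjusted p = 1 and 0.86), each pair with shTdp-43-1 and then shTdp-43-2. Bright and dim probe sets of 2 subunits were also compared. With shTdp-43-2 the median change of Camk2b was -0.33 over its 19 probe sets at a mean of 12 or more and -0.34 over its 14 dimmer ones. For Camk2a with shTdp-43-1 it was 0.57 over 14 and 0.76 over 18.

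**Figure D4:**
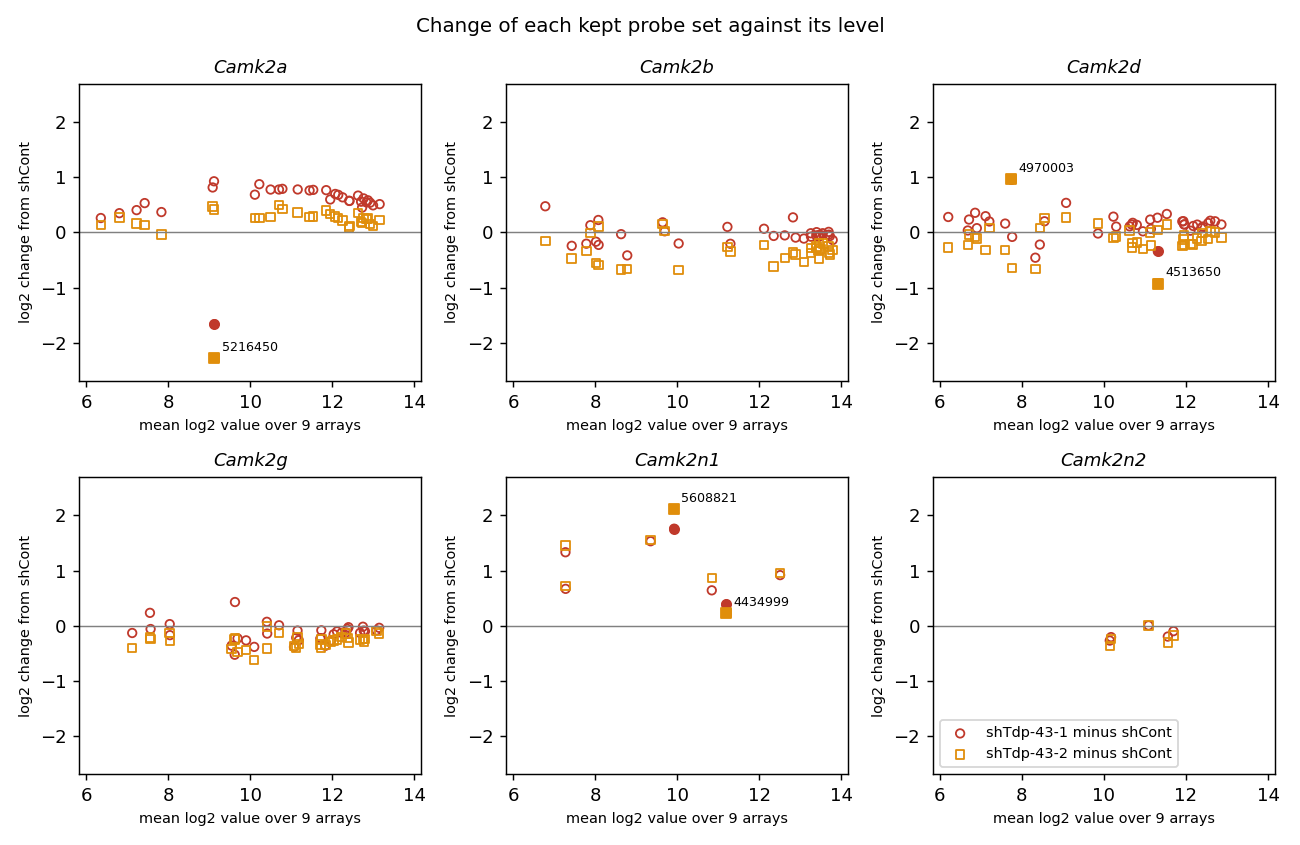
Log2 change from shCont (y axis) of each of the 152 kept probe sets against its mean log2 value over the 9 arrays (x axis), by gene, with circles for shTdp-43-1 and squares for shTdp-43-2; filled symbols with a number are the 5 probe sets that diffSplice called for usage with either hairpin. The Camk2a symbols lie at or above -0.04 except 5216450, at -1.67 and -2.28, and all Camk2n1 symbols lie above 0.

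Genes around CaMKII moved in both directions. The lists below were written with earlier results of these data known. Their counts are from the mean of both hairpins minus shCont (limma, n = 6 against 3), beside 7.42% of all genes called higher and 11.9% called lower, and a median change of all genes of 0.00. Of 15 relatives of the kinase, 2 rose and 3 fell (median -0.05), against 3 and 2 with arrays centred on their medians. Camk1g, a CaMKI isoform, rose by 0.41 ± 0.0855 and Pnck, another, by 0.31 ± 0.0878. Camk4, a nuclear relative that phosphorylates CREB, changed by -0.44 ± 0.106 and Camkk1, an activating kinase of CaMKI and CaMKIV, by -0.29 ± 0.0726. Camk4 fell with shTdp-43-2 (-0.70, limma adjusted p = 0.00187) and read -0.19 with shTdp-43-1 (limma adjusted p = 0.332), with a difference between the hairpins of -0.51 (limma adjusted p = 0.0194).

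Of 9 genes for calmodulin and proteins that bind calmodulin or buffer calcium, 3 rose and 0 fell (median 0.19; by limma's unadjusted p under 0.05, 1 was lower). They were Pcp4l1 (0.60 ± 0.106), the calmodulin-binding Pcp4 (0.31 ± 0.0669) and the calcium buffer Calb1 (0.24 ± 0.0756). Pcp4l1 rose with shTdp-43-1 (0.89, limma adjusted p = 0.00139) and read 0.31 with shTdp-43-2 (limma adjusted p = 0.0932). The hairpins differed in it by -0.57 (limma adjusted p = 0.012). Of 13 genes for anchors that hold CaMKII at synapses and channels, 3 rose and 1 fell (median 0.13), against 4 and 0 with arrays centred on their medians or with quantile normalization. The NMDA receptor subunit Grin1 rose by 0.27 ± 0.0734, the scaffold Dlg4 by 0.27 ± 0.0743 and the calcium channel subunit Cacnb1 by 0.23 ± 0.0754, while the NMDA receptor subunit Grin2a changed by -0.44 ± 0.132.

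Of 19 genes for substrates of CaMKII, 4 rose and 3 fell (median -0.03), against 5 and 1 with arrays centred on their medians and 5 and 2 with quantile normalization. Cpeb1, which controls translation at synapses, rose by 0.40 ± 0.0893, the potassium channel Kcnd2 by 0.33 ± 0.0837 and the exchange factor Kalrn by 0.29 ± 0.0917. Nos1, the neuronal nitric oxide synthase, changed by -0.53 ± 0.127. The fall of Nos1 was that of shTdp-43-2 (-0.95, limma adjusted p = 0.000945), beside -0.10 with shTdp-43-1 (limma adjusted p = 0.664), and the hairpins differed by -0.84 (limma adjusted p = 0.00398).

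Of 15 genes for phosphatases that oppose CaMKII and their regulators, 3 rose and 1 fell (median 0.01), against 3 and 0 with arrays centred on their medians. Those that rose were the regulators Rcan1, Rcan2 and Ppp1r1b (0.33 ± 0.0865). The phosphatase gene Ppp1cc changed by -0.26 ± 0.0834. Rcan1, an inhibitor of the calcium-dependent phosphatase calcineurin, read 10.60, 10.65 and 10.62 with shTdp-43-1 and 10.21, 10.15 and 10.17 with shTdp-43-2, against 9.85, 9.74 and 10.01 with shCont. With shTdp-43-1 it rose by 0.75 (limma adjusted p = 0.00039), and its rise with shTdp-43-2 was 0.31 (limma adjusted p = 0.0212). Its relative Rcan2 rose with shTdp-43-2 (0.58, limma adjusted p = 0.00235) and read 0.06 with shTdp-43-1 (limma adjusted p = 0.743). The hairpins differed in Rcan1 by -0.44 (limma adjusted p = 0.00598) and in Rcan2 by 0.52 (limma adjusted p = 0.00838), in opposite directions.

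Of 12 splicing regulators known or proposed to act on the alternative exons of CaMKII genes, 1 rose and 3 fell (median -0.07). Rbfox1 fell with both hairpins, with a change of -0.33 for shTdp-43-1 (limma adjusted p = 0.023) and of -0.53 for shTdp-43-2 (limma adjusted p = 0.000872). It read 10.60, 10.58 and 10.47 with shTdp-43-1 and 10.30, 10.42 and 10.34 with shTdp-43-2, against 10.98, 10.86 and 10.81 with shCont. Hnrnpa1 changed by -0.33 ± 0.0741 and Celf1 by -0.23 ± 0.0632, while Celf2 rose by 0.21 ± 0.0672 in the mean of both hairpins. Hnrnpa1 fell with shTdp-43-2 (-0.51, limma adjusted p = 0.0014) and read -0.14 with shTdp-43-1 (limma adjusted p = 0.311). Celf1 likewise fell with shTdp-43-2 (-0.38, limma adjusted p = 0.00328) and read -0.08 with shTdp-43-1 (limma adjusted p = 0.49). The hairpins differed in Hnrnpa1 (limma adjusted p = 0.0157) and in Celf1 (limma adjusted p = 0.0209). Celf2 passed only with shTdp-43-1 (limma adjusted p = 0.0395).

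The genes whose values over the 9 arrays were most like those of Camk2n1 were 1500011B03Rik (Pearson r = 0.996), Chst10 (0.993), Dip2c (0.993), Rab8a (0.993) and Taf9b (0.992). All 5 were higher with each hairpin, from 0.63 for Chst10 to 0.94 for Taf9b with shTdp-43-1. Those most like Camk2a were Mfsd4a (0.986), Ap3b2 (0.974) and Fbxo27 (0.971), and those most like Camk2b were Mark2, St3gal1 and Nploc4 (0.994 to 0.991). For Camk2d they were Micu2, Nt5c2 and Atp8a1 (0.977 to 0.973), for Camk2g Ulk2, Mrto4 and Edil3 (0.978 to 0.977), and for Camk2n2 Pcbp4, Snx15 and Gng2 (0.971 to 0.962). The 9 arrays share the 3 groups, so these correlations are a description of the arrays and carry no p-value.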

How the data were processed

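The authors made the deposited log2 values per exon probe set with RMA in Affymetrix Expression Console (all-exon analysis), per the labels; the build mm9 is from the submitters' processing notes, and the sources used here give no versions. RMA brings all arrays to 1 distribution, so a change shared by most probes is largely removed. Medians over all 1256831 probe sets were 6.15 to 6.19 with shTdp-43-1, 6.06 to 6.09 with shTdp-43-2 and 6.04 to 6.06 with shCont. The shTdp-43-1 arrays thus lay above all others. Gene names came from the platform annotation, updated through RefSeq symbols. A gene value is the mean log2 of probe sets naming that gene alone, with a 9-array mean at or above the table's median, 6.07, and at least 3 per gene. This gave 16770 genes and 248701 probe sets, a median of 12 per gene.

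All 9 arrays were fitted together in R 4.3.3 with limma 3.58.1 (lmFit, eBayes; 6 residual degrees of freedom), and usage with diffSplice. P-values were adjusted by Benjamini-Hochberg over all genes or all probe sets and called under 0.05. The smallest exact permutation p for 3 arrays against 3 is 0.1, so none was run. The gene-level fit, diffSplice and the own-variance model were tested on simulated data, in the contrast of shTdp-43-1 with shCont. The other settings were not. The gene-level fit recovered 39% of log2 changes of 0.5 and 88% of those of 1, and 1.55% of its calls were false. A gene that did not pass may thus still have changed. Of the diffSplice calls, 75.5% were false ones in genes without a changed probe set, against 1.41% of the own-variance calls. These shares depend on the numbers planted, 200 changed genes and 200 changed probe sets. Gene-wide noise was added to probe set noise that already held it, so the simulated arrays may be noisier than the real ones. The number of arrays limits the precision.

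The members and lists were chosen with earlier results of these data known. The rule for named items takes the 6 members and Tardbp; their probe sets called alike with both hairpins, or else the 1 with the lowest p; at most 4 called genes per list; and the most alike genes. The alternatives were other dim filters, centring, quantile normalization, the median of probe sets, other eBayes settings, a replicate block, single arrays left out and only the groups compared. Camk2a without its most changed probe set, probe sets under 12 only and the own-variance model were added after the data were seen.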

Additional observations from a re-analysis of the deposited data

Results flagged for a closer look

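The hairpins differed from each other in Camk2a by -0.38 (shTdp-43-2 minus shTdp-43-1, log2; limma adjusted p = 0.0167, n = 3 against 3). All 3 shTdp-43-2 arrays, at 10.77 to 10.98, lay below all 3 shTdp-43-1 arrays, at 11.17 to 11.37. Camk2a was chosen on its values against shCont on these same arrays, so this p is not fully independent of the choice, and the call was present in 17 of 20 alternative settings (limma adjusted p up to 0.0592). They also differed in Camk2b, by -0.30 (limma adjusted p = 0.0235, called in 14 of 20 alternative settings), with shTdp-43-2 at 11.09 to 11.22 and shTdp-43-1 at 11.42 to 11.50. Tardbp differed between the hairpins by 0.03 (95% interval -0.38 to 0.43). Over all genes, 11.5% were called between the hairpins.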

How the results depend on the processing

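The Camk2a probe set 5216450 was called with each hairpin, and Camk2b with shTdp-43-2, in every alternative that gave a value. The replicate numbers paired the arrays only in part. With group means removed, r of same-numbered arrays was 0.34 to 0.59 for number 1, -0.38 to 0.04 for number 2 and 0.13 to 0.32 for number 3. In all, 3 of 9 arrays matched their own number best in both other groups. The number 1 arrays all lay below the others in 3.73% of probe sets and above them in 4.35%, against 0.391% each way for number 2. Of the 152 member probe sets, 10 were lowest and 2 highest on the number 1 arrays. The main fits left the number out. With the number as a replicate block, diffSplice called 7, 9 and 10 member probe sets with shTdp-43-1, with shTdp-43-2 and in their mean (without it 4, 5 and 5), and over all probe sets 2644, 5035 and 4376 (without it 1229, 3095 and 2452), and 2065 between the hairpins (without it 1095). Under the block, usage of Camk2b probe set 4655211 passed with shTdp-43-2 (adjusted p = 0.00343) and in the mean (0.0288), and that of Camk2g probe set 4533122 with shTdp-43-1 (0.0319). Of the list of substrates the block called 2 higher (otherwise 4), and of the splicing regulators 0 (otherwise 1). With each probe set's own variance the member counts were 1, 3 and 1 and those over all probe sets 13, 375 and 88, and 0 between the hairpins.

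With single arrays left out, member probe sets called with shTdp-43-1 ranged from 1 to 4, and members called between the hairpins from 0 to 3 (otherwise 2). Members called between the hairpins numbered 1 with the median of probe sets and 1 with only the groups compared. In the mean of both hairpins 4 members were called when the 75th percentile served as dim filter and 4 with eBayes trend and robust (otherwise 2). Between the hairpins 1 member probe set was called for usage with no dim filter (otherwise 0). Of the genes on the lists around CaMKII, 27 were called in the mean of both hairpins, beside 19.3% of all genes. The lists held 15, 9, 13, 19, 15 and 12 tested genes. The number called was 17 when the dim filter was the 25th percentile and 16 when there was none, with the share of all genes under these filters not given here. Either way 1 anchor was called higher (otherwise 3), 2 substrates higher (otherwise 4), 0 phosphatase genes lower (otherwise 1) and 0 splicing regulators higher (otherwise 1).

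Values that changed sign were all uncalled. Camk2b with shTdp-43-1 was 0.0087 with centred arrays. Camk2n2 was 0.0038, 0.0045, 0.0041 and 7e-04 over the 4 contrasts with the median of probe sets, since its median set is 5485540. Camk2d in the mean was -0.013 with the 75th percentile filter, and ranged from -0.035 (shCont replicate 1 left out) to 0.072 with single arrays left out, with -0.020 when shTdp-43-2 replicate 2 was missing. Usage of Camk2n2 probe set 5485540 between the hairpins ranged from -0.050 (shTdp-43-1 replicate 2 left out) to 0.21 with single arrays left out. For the lost calls and sign changes without a stated cause, the cause was not tested.

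With single arrays left out, all genes called numbered 784 to 2224 with shTdp-43-1 (otherwise 1865), 1631 to 3487 in the mean (otherwise 3234) and 964 to 1926 between the hairpins (otherwise 1934), and with the median of probe sets 1041, 2103 and 1198. All probe sets called for usage numbered 625 to 1630 with shTdp-43-1, 1636 to 4768 with shTdp-43-2, 1098 to 3699 in the mean and 628 to 1515 between the hairpins. With no dim filter they numbered 2275 with shTdp-43-1 and 2046 between the hairpins, with the 25th percentile filter 1993 and 1826, and with the 75th 621 and 587. The 75th percentile filter gave 1626 in the mean, and only the groups compared gave 1862 with shTdp-43-1 and 675 between the hairpins.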
